A study of Homo sapiens with 6 samples.

Results

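The cytosolic ribosome reads mRNA into protein, and in human cells its large and small subunits are built from ribosomal RNA and a set of ribosomal proteins present mostly in 1 copy per particle. The 77 genes described here encode such proteins. They were taken from the 32985 genes of the deposited table by name (RPL or RPS with a number, with or without a final A or X, the stalk proteins RPLP0, RPLP1 and RPLP2, and RPSA), by a protein-coding label and by a mean level of at least 5 FPKM over the 6 libraries. Every gene that matched the name passed the level, so no gene lay just below it, and the nearest above it was RPS29 at 17.0 FPKM. By name, 46 of the genes belong to the large subunit and 31 to the small subunit. FPKM is a fragment count scaled by transcript length and library size.

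The cells were 8505C, an established line of human anaplastic thyroid cancer (ATC), transfected with control siRNA (siCtrl, 3 libraries) or with siRNA against NUF2 (siNUF2, 3 libraries), with 24 h given in the labels for both groups. The control cells are labelled WT, and both groups share the line, the medium and the transfection. NUF2 is a subunit of the NDC80 complex, which couples kinetochores to spindle microtubules. A single siRNA sequence stands behind the knockdown in the description of the experiment. Poly(A) RNA was sequenced as paired reads. The labels give no separate cultures behind the replicate numbers, so every p-value here measures the spread between these libraries, which may be technical.

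Most mRNAs of ribosomal proteins in vertebrates begin with a C followed by an unbroken run of pyrimidines, the terminal oligopyrimidine or TOP motif, through which mTOR signalling and the RNA-binding protein LARP1 set their translation together. Because subunits are assembled in fixed proportion, surplus ribosomal protein is degraded, and free RPL5 and RPL11 bind MDM2 when assembly is disturbed. Levels of these mRNAs are high in proliferating cells.

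The starts of 8 genes are shown because the results turn on them or because they are reference points of the family: the 4 genes that passed a test below (RPL11, RPL13A, RPL12 and RPS26), RPSA with the second lowest log2 fold change, RPS12 with the highest FPKM, and RPS6 and RPLP0 as well-studied members. Each line gives 30 bases of the transcribed strand from RefSeq on GRCh38.p14, 10 before the annotated start and 20 from it, and capitals mark an unbroken run of C and T that begins with C at the first transcribed base.
RPL11 (chr1:23691796-23691825, plus strand): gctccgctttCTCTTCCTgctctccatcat
RPL13A (chr19:49487598-49487627, plus strand): aaacctcctcCTTTTCCaagcggctgccga
RPL12 (chr9:127451387-127451416, minus strand): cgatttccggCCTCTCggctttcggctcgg
RPS26 (chr12:56041908-56041937, plus strand): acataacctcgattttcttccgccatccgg
RPSA (chr3:39406710-39406739, plus strand): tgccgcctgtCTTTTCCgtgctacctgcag
RPS12 (chr6:132814559-132814588, plus strand): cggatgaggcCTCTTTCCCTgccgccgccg
RPS6 (chr9:19380217-19380246, minus strand): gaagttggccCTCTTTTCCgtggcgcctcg
RPLP0 (chr12:120201092-120201121, minus strand): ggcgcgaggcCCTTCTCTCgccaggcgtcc

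A RefSeq start was found by symbol for 62 of the 77 genes. A C followed by at least 4 pyrimidines, read on the transcribed strand at the first transcribed base of any listed start, was present in 46 of these 62 (74.2%). The same letters stood at a start of 620 of 8536 other tested genes (7.26%) and of 5.14% of all 27305 genes with a RefSeq start. RPS26 has no such run at its listed start, where a match is only a description of the letters in this window. The 46 genes with the run had a median log2 fold change of 0.09 in siNUF2 against siCtrl, and the 16 matched genes without it also had 0.09. The 620 other genes with the run had a median of 0.03, and 23 of these 620 passed an adjusted p of 0.05 by edgeR, beside 3.99% of all tested genes.

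NUF2 itself stood at 14.8, 14.5 and 12.2 FPKM in siCtrl and at 1.53, 2.05 and 1.56 FPKM in siNUF2, and the siNUF2 mean was 12.4% of the siCtrl mean. The log2 fold change was -2.99 ± 0.17 (SE, n = 3 per group, edgeR quasi-likelihood test, adjusted p = 5.1e-04 over 11725 genes). Libraries held 61257859 to 69755291 counts on genes, and the 77 genes had between 10052 and 182304 counts each in every library. Mitochondrial genes took 5.46 to 6.70% of counts in siCtrl and 6.54 to 7.06% in siNUF2. Markers of the labelled cell type were sparse, as 2 of 8 thyroid follicular genes (NKX2-1 and HHEX) reached 1 FPKM while TG had a mean of 0.0030 FPKM. VIM stood at 479 FPKM. Of the epithelial markers KRT18 stood at 162 FPKM, while EPCAM and CDH1 had means of 0.133 and 0.0062 FPKM. PTPRC, CD3E, PECAM1 and DCN, which mark leukocytes, endothelium and fibroblasts, were each under 1 FPKM, and CD14 and CDH5 stood at 1.77 and 1.16 FPKM. Fewer cells and less RNA per cell cannot be told apart in such bulk libraries.

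Levels differed widely within the family. RPS12, a small-subunit protein, was the highest at 1164, 1282 and 1303 FPKM in siCtrl and 1252, 1395 and 1319 FPKM in siNUF2. RPS18 followed with 755 to 1007 FPKM over the 6 libraries, then RPL7A with 731 to 925, and RPL8 had 606 to 770. No library of RPS18 reached the lowest value of RPS12, while RPS18 and RPL7A, and RPL7A and RPL8, each overlapped across libraries. At the low end RPL38 had 63.0 to 77.0 FPKM, RPL9 had 54.5 to 64.9 FPKM and RPS29, a small zinc-binding protein of the small subunit, had 12.7 to 20.1 FPKM. RPL38 and RPL9 overlapped and RPS29 stood below both.

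The median of the 77 genes was 274 FPKM, and the highest was 75.7 times the lowest. This order depends on the length each gene was given. The length implied by the deposited counts and FPKM was 0.74 kb for RPS12 and 11.5 kb for RPS29, although the canonical RPS29 transcript in GENCODE release 44 is 295 nt long. Per kilobase of coding sequence, the counts normalised to library size (CPM) in siCtrl ranged 15.5-fold, from 570 for RPL9 to 8849 for RPL41, whose coding sequence of 78 nt is the shortest of the family. RPS12 ranked 16 of 77 on this scale.

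**Figure D1:**
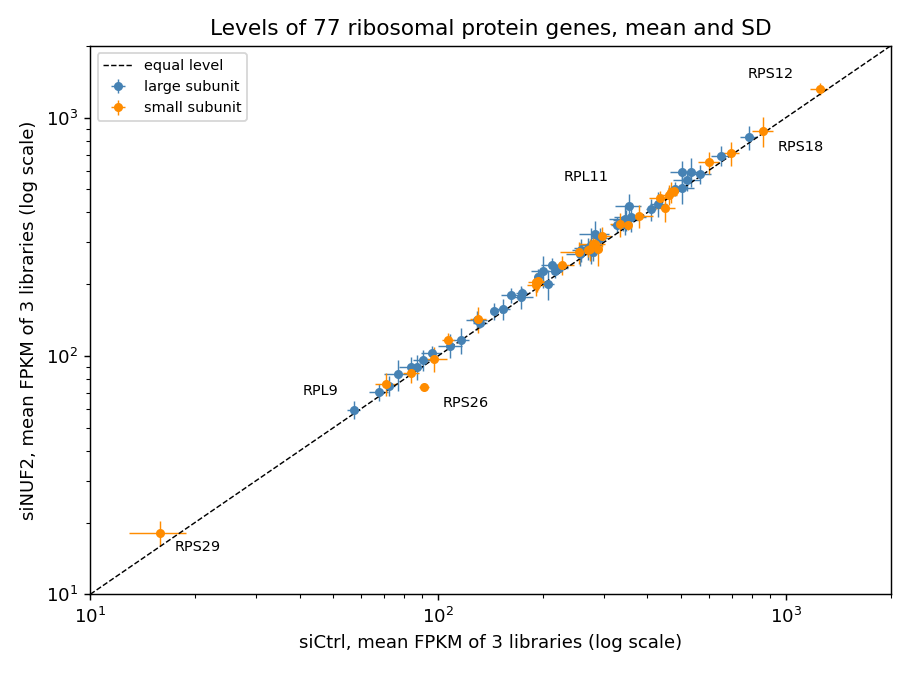
Mean FPKM of each of the 77 genes in 3 siNUF2 libraries (vertical, log scale) against the mean in 3 siCtrl libraries (horizontal, log scale), with SD in both directions, blue for the large and orange for the small subunit. All genes lie close to the dashed line of equal level, from RPS29 at 15.9 and 18.1 FPKM to RPS12 at 1250 and 1322 FPKM, with RPS26 below the line.

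The question put to these genes was whether their mRNA changed as a family when NUF2 was depleted. In siNUF2 72 of 77 genes had a higher fitted level than in siCtrl, with a median log2 fold change of 0.10 where all 11725 tested genes had 0.01. The changes were small and close together. They ran from -0.28 for RPS26 to 0.29 for RPL11 with an SD of 0.07 over the 77 genes. The SD was 0.27 over 2341 other tested genes at or above the FPKM of RPS29, and their median was 0.04. RPS29 stood at 17.0 FPKM, the next lowest member, RPL9, at 58.3 and the median member at 274. The other genes shared only this floor and were not matched to the members in level. The 46 large-subunit genes had a median of 0.10 with 44 above 0, and the 31 small-subunit genes had 0.08 with 28 above 0.

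No ribosomal protein gene passed an adjusted p of 0.05 by edgeR (0 of 77, where 3.99% of all tested genes passed). At an unadjusted p under 0.05 there were 2, RPL11 higher and RPS26 lower, which is 1.30% of the family in each direction, below the 8.60% of all tested genes that were higher and the 9.56% that were lower by this rule. DESeq2 and limma on log2(FPKM + 1) also called 0 of the 77, where they called 972 and 383 of 11725 tested genes. They had 3 and 1 members at an unadjusted p under 0.05. The 95% intervals of all 77 genes lay inside 1.5-fold in either direction. A larger change of any single member was therefore outside its interval. Changes of the size of the median could not be told from 0 gene by gene in this fit without the block.

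Libraries with the same replicate number deviated together, so each siNUF2 library was also set against the siCtrl library of its number. All 3 log2 ratios were above 0 for 45 of 77 genes (58.4%), where 26.5% of all tested genes were higher in every pair. All 3 were below 0 for 1 gene, RPS26 (1.30%), where the share over all tested genes was 25.3%. In the fit with the replicate number as a block, 4 of 77 genes passed an adjusted p of 0.05 (14.5% of all tested genes did), with RPL11, RPL13A and RPL12 higher (3 genes, 3.90%, against 6.64% of all tested genes) and RPS26 lower (1 gene, against 7.91%). At an unadjusted p under 0.05 this fit had 12 of 77 genes higher and 1 lower, where 1685 and 1820 of 11725 tested genes were. With or without the block, the share of members called at an adjusted p of 0.05 was below that of all tested genes. Log2 fold changes given below with an SE are from the fit without the block unless the block is named.

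**Figure D2:**
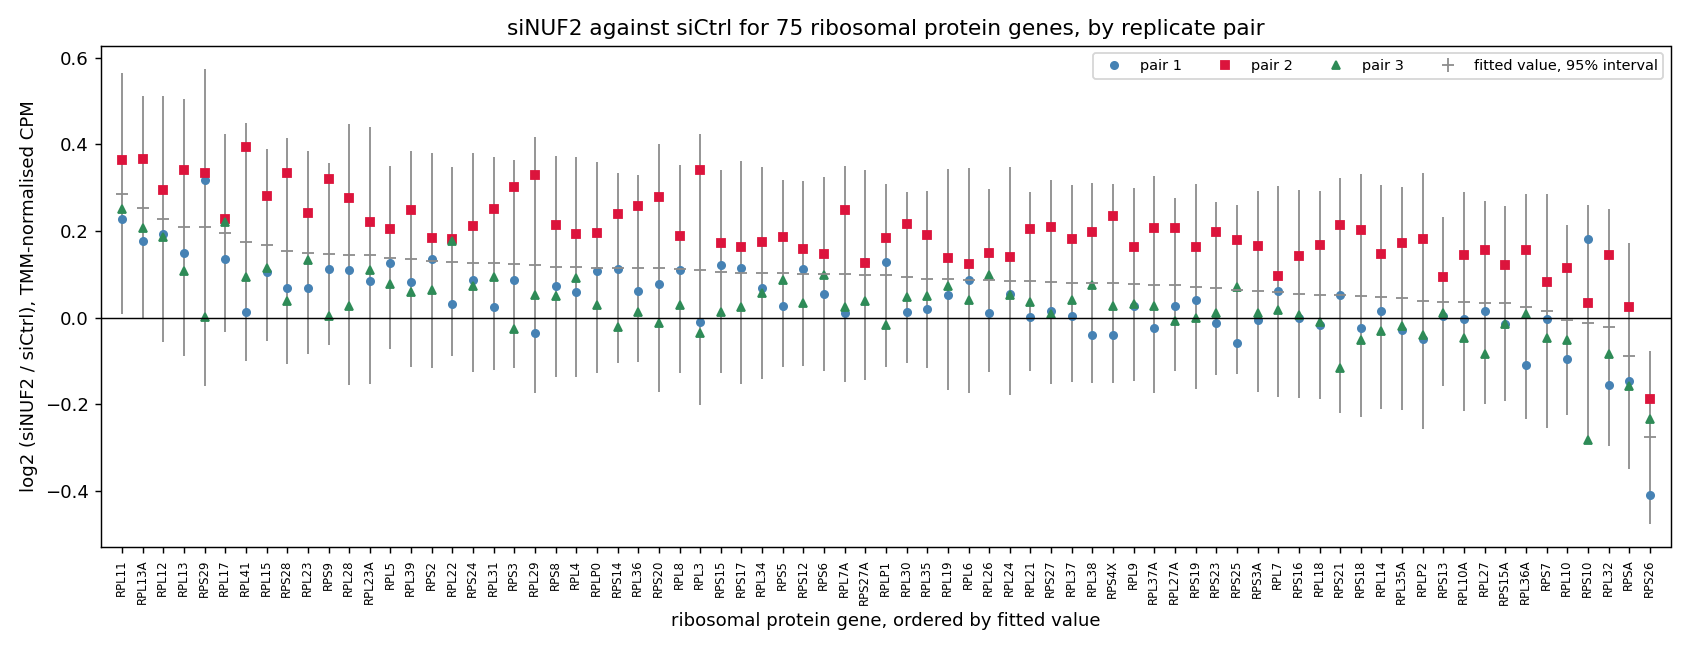
Log2 ratio of siNUF2 over siCtrl for 75 of the 77 genes in pair 1 (circles), pair 2 (squares) and pair 3 (triangles), with the fitted value and its 95% interval in grey, ordered by the fitted value. Squares lie above the other marks for 73 of the 75 genes shown, and RPS26 at the right end is below 0 in every pair.

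The size of the shift rested on pair 2. The median log2 ratio of the 77 genes was 0.04 in pair 1, 0.19 in pair 2 and 0.03 in pair 3, where the medians of all tested genes were 0.0013, 0.017 and -0.0017. The number of genes above 0 was 56, 76 and 54. The CPM of 75 genes was highest in siNUF2 library 2 of all 6 libraries, and the lowest value lay in siCtrl library 3 for 33 genes and in siCtrl library 1 for 19. Without siNUF2 library 2 the median fell to 0.023 and 49 genes stayed above 0, and without both libraries numbered 2 these were 0.037 and 57. Leaving out siNUF2 library 2 alone keeps its pair, siCtrl library 2, in which these genes took 7.55% of counts, the most in siCtrl. RPL11 had 0.17 without siNUF2 library 2 and 0.24 without both libraries numbered 2, and RPL13A had 0.16 and 0.19.

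As a share of all counts on genes, the 77 genes took 7.22, 7.55 and 7.06% in siCtrl and 7.38, 8.47 and 7.13% in siNUF2. The groups overlapped, and siNUF2 library 2 stood apart from the other 5. The means were 7.28 ± 0.25% and 7.66 ± 0.71% (SD, n = 3), so the difference of 0.38 percentage points was smaller than the SD of the siNUF2 libraries. It was -0.022 points without siNUF2 library 2 and 0.114 points without both libraries numbered 2. Within the pairs the share rose by 0.158, 0.921 and 0.070 points. As a share of counts on protein-coding genes without mitochondrial genes, the means were 7.95 ± 0.27% and 8.46 ± 0.80%, a difference of 0.508 points. This share rose by 0.196, 1.146 and 0.181 points within the pairs. Its difference was 0.053 points without siNUF2 library 2 and 0.189 points without both libraries numbered 2. As a share of summed FPKM the means were 8.33 and 8.45%, a difference of 0.126 points, which was -0.22 points within pair 3 and -0.066 points without both libraries numbered 2. Large-subunit genes took 4.16 to 4.52% in siCtrl and 4.27 to 5.12% in siNUF2, higher in every pair, and small-subunit genes took 2.87 to 3.03% and 2.86 to 3.35%, higher in pairs 1 and 2.

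**Figure D3:**
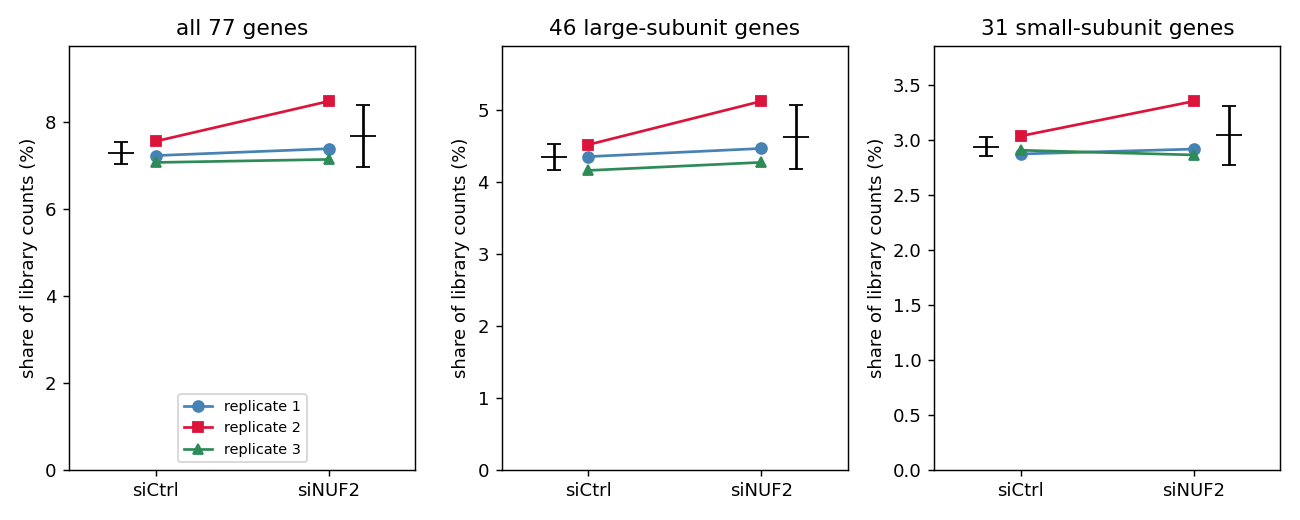
Share of each library's counts (%, axes from 0) on all 77 genes, on the 46 large-subunit and on the 31 small-subunit genes, with lines joining libraries of 1 replicate number and bars for the mean and SD of 3 libraries. Replicate 2 rises from 7.55 to 8.47%, while replicates 1 and 3 move by 0.16 and 0.07 percentage points.

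Transcript length moved with the ratios of pair 2 over all genes. Among the other tested genes, split into 10 bins of equal size by the implied length, the median log2 ratio of pair 2 went from 0.15 in the bin of the shortest genes to -0.09 in that of the longest. In pair 1 the same medians were 0.0075 and -0.00062 and in pair 3 they were 0.038 and 0.0041. Ribosomal protein mRNAs are short, with a median canonical length of 785 nt against 2963 nt over all tested genes. By the implied length used for the bins, these medians were 3.41 and 5.52 kb. The bin of the shortest genes held 4 members, and bins 2 to 5 held 21, 15, 12 and 9. In bins 2 to 5 the pair 2 medians of the other genes were 0.12, 0.067, 0.038 and 0.011. The canonical lengths of the family ran from 295 nt for RPS29 to 7573 nt for RPL37. With offsets for the implied length the median of the family was 0.09 with 72 genes above 0, and with offsets for the canonical length of GENCODE it was 0.05 with 59 above 0.

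**Figure D4:**
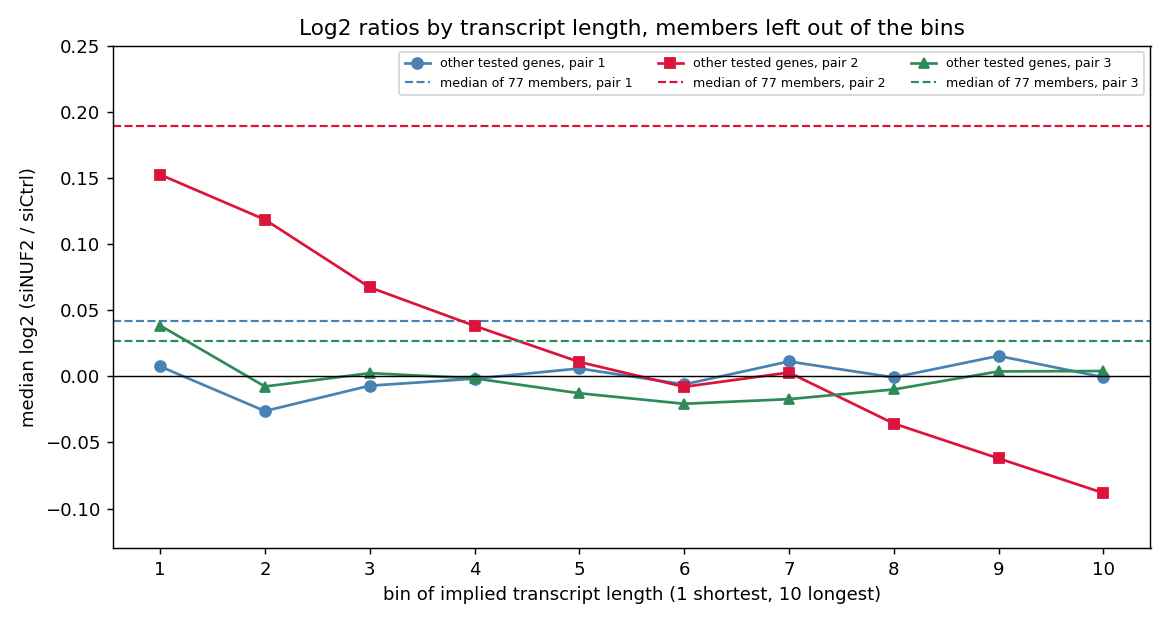
Median log2 ratio of siNUF2 over siCtrl for the other tested genes in 10 bins of implied transcript length (1 shortest, 10 longest), 1 line per replicate pair, with dashed lines at the median of the 77 ribosomal protein genes in the same pair. Pair 2 falls from 0.15 to -0.09 along the bins, its dashed line is at 0.19, and the other dashed lines are at 0.04 and 0.03.

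RPL11 is a large-subunit protein that joins the ribosome with RPL5 and 5S RNA. Its gene lies on chromosome 1 (23691742 to 23696835 on GRCh38). It had 1038, 1207 and 1051 CPM in siCtrl and 1215, 1553 and 1249 CPM in siNUF2, and every siNUF2 library was above every siCtrl library. The log2 fold change was 0.29 ± 0.12 (SE, adjusted p = 0.264 by edgeR), and with the replicate block it was 0.28 ± 0.06 (adjusted p = 0.020). Without siNUF2 library 2 the unblocked value was 0.17. The ratio was 0.23, 0.36 and 0.25 in the 3 pairs, and the blocked adjusted p was 0.041 without pair 2 and 0.114 without pair 3.

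RPL13A, a large-subunit protein also known for a role outside the ribosome in the interferon response, lies on chromosome 19 (49487554 to 49492308). It had 1458, 1446 and 1274 CPM in siCtrl and 1649, 1863 and 1470 CPM in siNUF2. The lowest siNUF2 library was just above the highest siCtrl library. The log2 fold change was 0.25 ± 0.11 (adjusted p = 0.282 by edgeR) and 0.25 ± 0.06 with the block (adjusted p = 0.034). The unblocked value was 0.16 without siNUF2 library 2. The blocked adjusted p was 0.068 without pair 2 and 0.161 without pair 3. The introns of RPL13A carry SNORD32A, SNORD33, SNORD34 and SNORD35A, small nucleolar RNAs that share its stretch of the table.

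RPL12, part of the base of the ribosomal stalk, lies on chromosome 9 (127447674 to 127451406, minus strand). It had 834, 872 and 721 CPM in siCtrl and 953, 1069 and 821 CPM in siNUF2. The groups overlapped, but within each number the siNUF2 library was higher, with log2 ratios of 0.19, 0.29 and 0.19. The log2 fold change was 0.23 ± 0.12 (adjusted p = 0.390 by edgeR) and 0.22 ± 0.06 with the block (adjusted p = 0.041). The unblocked value was 0.13 without siNUF2 library 2 and 0.15 without siCtrl library 3. Without any 1 of the pairs the blocked adjusted p was between 0.067 and 0.201.

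RPS26, a small-subunit protein that contacts mRNA near the exit of the channel, was the only member with every siNUF2 library below every siCtrl library. Its gene lies on chromosome 12 (56041351 to 56044676). It had 227, 215 and 215 CPM in siCtrl and 171, 189 and 183 CPM in siNUF2. The log2 fold change was -0.28 ± 0.09 (adjusted p = 0.144 by edgeR) and -0.28 ± 0.07 with the block (adjusted p = 0.045). The ratio was -0.41, -0.19 and -0.23 in the 3 pairs, and the blocked adjusted p was 0.287 without pair 1 and 0.114 without pair 3. Rows named as RPS26 pseudogenes held 1.21 to 1.82% as many counts as RPS26 itself, so their sum was small beside it.

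**Figure D5:**
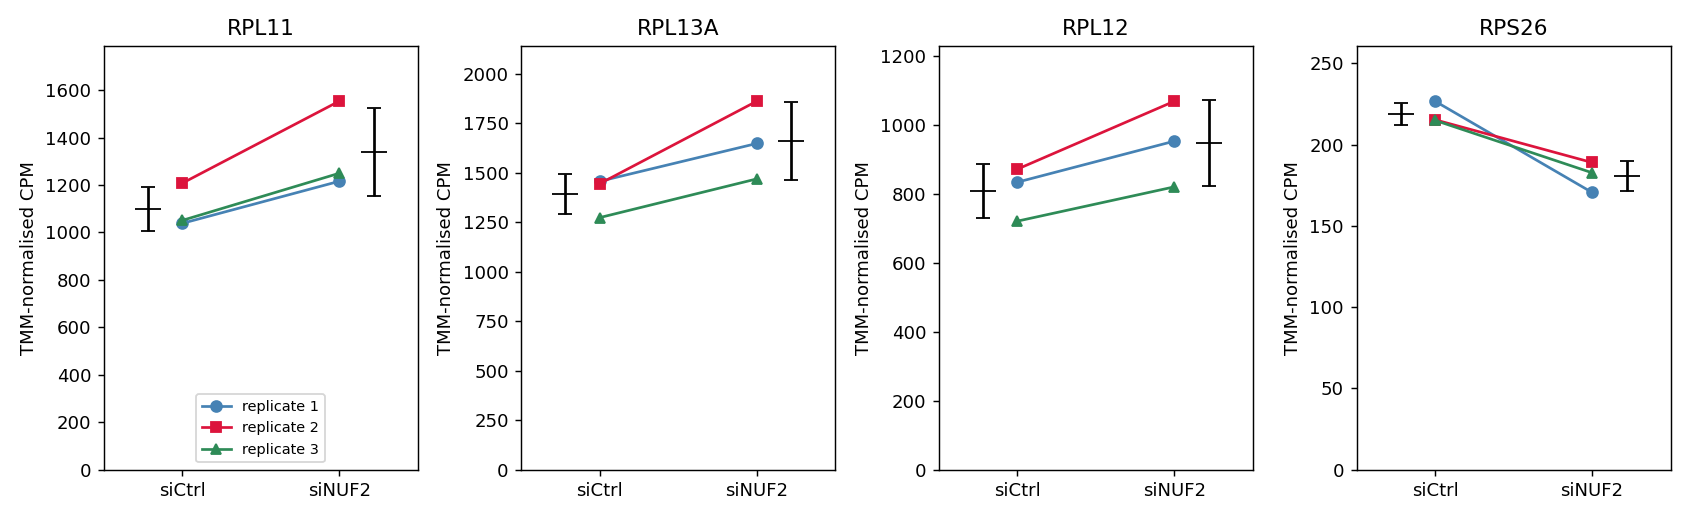
Normalised CPM (axes from 0) of RPL11, RPL13A, RPL12 and RPS26 in siCtrl and siNUF2, with lines joining libraries of 1 replicate number and bars for the mean and SD of 3 libraries. All 3 lines rise for the large-subunit genes and all 3 fall for RPS26, from 215 to 227 CPM to 171 to 189 CPM.

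In all, every siNUF2 library was above every siCtrl library for 5 genes, among them RPL11, RPL13A, RPS9 and RPL22, 6.49% of the family against 12.1% of all tested genes, and below it for RPS26 alone (1.30% against 12.0%). RPS9 and RPL22 had log2 fold changes of 0.15 and 0.13 and adjusted p-values of 0.464 and 0.547 by edgeR, and RPL22 had 0.071 without siNUF2 library 2. RPL22, which binds RNA outside the ribosome in T-cell development, shares its stretch of chromosome 1 with RNF207 on the other strand, and no strand setting of the counts is given in the sources used here.

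RPL5, the partner of RPL11 in the 5S particle, had 1409, 1462 and 1360 CPM in siCtrl and 1537, 1685 and 1436 CPM in siNUF2, with a log2 fold change of 0.14 ± 0.09. It was higher in every pair, and the groups overlapped. RPL26, which is known to bind p53 mRNA, had 0.09 ± 0.09. Without siNUF2 library 2 these values were 0.077 for RPL5 and 0.033 for RPL26.

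The stalk proteins recruit elongation factors. RPLP0, their anchor, had 1375, 1426 and 1277 CPM in siCtrl and 1481, 1633 and 1304 CPM in siNUF2 (log2 fold change 0.12 ± 0.11). RPLP1 had 0.10 ± 0.09 and RPLP2 had 0.04 ± 0.13, and without siNUF2 library 2 the values of RPLP0, RPLP1 and RPLP2 were 0.036, 0.053 and -0.07. The groups overlapped for each of the 3.

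RPS6 is the ribosomal protein that S6 kinases phosphorylate downstream of mTOR. It had 1398, 1434 and 1267 CPM in siCtrl and 1453, 1588 and 1356 CPM in siNUF2, with a log2 fold change of 0.10 ± 0.10 close to the median of the family. RPS3, at the mRNA entry site, had 0.12 ± 0.10, and RPL3, at the peptidyl transferase centre, had 0.11 ± 0.14. RPS14 and RPS19, which are lost or mutated in the 5q- syndrome and in Diamond-Blackfan anaemia, had 0.11 ± 0.10 and 0.07 ± 0.10. RPS27A, made as a fusion with ubiquitin, had 0.10 ± 0.11, and RPS4X, encoded on the X chromosome, had 0.08 ± 0.10. None of these genes passed an adjusted p of 0.05 with or without the block. The values of RPL3, RPS19 and RPS4X were -0.032, -0.016 and -0.013 without siNUF2 library 2. For RPS19 this was the only 1 of 21 alternatives in which the sign turned. Those of RPS6, RPS3, RPS14 and RPS27A were 0.041, 0.034, 0.047 and 0.019 without that library.

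The next highest values after RPL12 belonged to RPL13 and RPS29. RPL13 had 847, 983 and 887 CPM in siCtrl and 939, 1245 and 956 CPM in siNUF2 (log2 fold change 0.21 ± 0.13, and 0.066 without siNUF2 library 2). RPS29 had 146, 188 and 215 CPM in siCtrl and 182, 237 and 215 CPM in siNUF2 (0.21 ± 0.16), and the CV of its siCtrl libraries, 19.0%, was the largest of the family. Its value was 0.069 without siCtrl library 1, 0.34 without siCtrl library 3 and 0.12 without siNUF2 library 2. The row of RPS29 overlaps those of LRR1 and RN7SL1, each above 10% of its FPKM. RPL41 had the largest ratio in pair 2, 0.39, beside 0.014 in pair 1 and 0.09 in pair 3, and its fitted value fell from 0.17 to 0.053 without siNUF2 library 2.

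Below 0 stood RPS26 and 4 other genes. RPSA, a small-subunit protein also described as a laminin receptor, had 1927, 2188 and 2058 CPM in siCtrl and 1740, 2224 and 1844 CPM in siNUF2 (log2 fold change -0.09 ± 0.11). Its value was -0.017 without siNUF2 library 1 and -0.20 without siNUF2 library 2. RPL32 had -0.02 ± 0.12, RPS10 had -0.01 ± 0.12 and RPL10, which completes the large subunit late in its maturation, had -0.0061 ± 0.10. The ratios of RPS10 spread the most, with 0.18 in pair 1, 0.03 in pair 2 and -0.28 in pair 3, and the signs of RPL32, RPS10 and RPL10 turned when single libraries were left out.

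Across the 77 genes the log2 ratios of the pairs moved together, with Pearson r of 0.57 for pairs 1 and 2, 0.47 for pairs 1 and 3 and 0.58 for pairs 2 and 3. Without RPS26 these were 0.40, 0.36 and 0.50, and over all tested genes they were 0.27, 0.38 and 0.21. These are descriptions across genes of the same 6 libraries, which are not independent replicates.

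The medians differed little by position or level. The 77 genes lie on 21 chromosomes, with 12 on chromosome 19, whose median log2 fold change was 0.11 against 0.09 for the other 65. The 20 members of highest FPKM had a median of 0.08 and the 20 of lowest FPKM had 0.09.

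Ribosomal proteins outside the name rule were read from a list of 10, of which 8 were tested. RPL26L1, a close paralogue of RPL26, rose from 26.8, 24.5 and 23.6 FPKM in siCtrl to 49.9, 35.8 and 38.6 FPKM in siNUF2 (log2 fold change 0.75 ± 0.14, adjusted p = 0.027 by edgeR). Every siNUF2 library was above every siCtrl library, while RPL26 itself had 318 to 353 FPKM in siCtrl and 336 to 380 FPKM in siNUF2. FAU, which encodes RPS30 fused to a ubiquitin-like protein, had 0.14 ± 0.09. The other tested genes of the list had log2 fold changes from -0.21 (RPL7L1) to 0.09 (RPL22L1), and 1 of 8 passed the test in all, higher, where 3.99% of all tested genes passed in either direction. The call of RPL26L1 was kept with the block but held in only 1 of the 6 fits that left out a library, that without siNUF2 library 2. Over those 6 fits its adjusted p was 0.037 to 0.096, and it was 0.055 with length offsets, 0.063 with GENCODE length offsets, 0.083 with no filter and 0.107 without both libraries numbered 2.

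Of 20 elongation factors and other mRNAs known or proposed to carry a TOP motif, 16 were higher and 4 lower in siNUF2, with a median of 0.14. Of these, 1 rose and 1 fell at an adjusted p under 0.05 by edgeR, against 3.99% of all tested genes in either direction. EIF3F, a subunit of initiation factor eIF3, rose from 20.8, 22.1 and 19.5 FPKM to 32.9, 37.2 and 31.8 FPKM (log2 fold change 0.73 ± 0.10, adjusted p = 0.010, and 0.065 without both libraries numbered 2). NPM1, the nucleolar chaperone of ribosome assembly, fell from 482, 433 and 446 FPKM to 259, 207 and 245 FPKM (-0.92 ± 0.10, adjusted p = 0.0051). With the block 4 rose (EIF3F, EEF1A1, EEF2 and NAP1L1) and 2 fell (NPM1 and NACA), where 6.64% of all tested genes rose and 7.91% fell. RACK1, a scaffold on the small subunit, had -0.08 ± 0.13.

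Of 34 tested ribosome assembly factors 18 were higher and 16 lower, with a median of 0.03, and 0 passed the test by edgeR, with 7 at an unadjusted p under 0.05, where 18.2% of all tested genes in either direction had such a p. With the block 5 rose and 2 fell, beside 6.64% and 7.91% of all tested genes. FBL, the methyltransferase of box C/D particles, DKC1, the pseudouridine synthase of box H/ACA particles, SBDS, RIOK1 and POLR1B rose by 0.27 to 0.50 on the log2 scale, and RRP12 and BRIX1 fell by 0.42 and 0.43 on the log2 scale. Another list held 7 RNA-binding proteins, not all of them established as binding TOP mRNAs. Of these, TIAL1 fell from 14.1, 15.5 and 16.5 FPKM to 9.64, 10.5 and 11.6 FPKM (log2 fold change -0.51 ± 0.11, adjusted p = 0.045 by edgeR). LARP1 had 0.03 ± 0.10. TIAL1 was called in 0 of the 6 fits that left out a library (adjusted p 0.062 to 0.160), and its adjusted p was 0.054 and 0.059 with the length offsets, 0.123 with no filter and 0.189 without both libraries numbered 2. This call of 1 of 7 stands beside 3.99% of all tested genes. The median of these 7 was -0.02.

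Many processed pseudogenes resemble ribosomal protein mRNAs. The table holds 468 rows named as such, which took 0.188 to 0.206% of counts in siCtrl and 0.194 to 0.224% in siNUF2. For 6 genes, among them RPL9, RPL7, RPS2, RPL21 and RPS7, the pseudogene rows held at least 10% as many counts as the gene in every library, up to 32.0% for RPL9, so the levels of these 6 genes are uncertain. RPL11 had 0 to 2 such counts.

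The 3′ UTRs of the family were short, with a median of 112 nt against 1319 nt for other tested genes in the canonical transcripts of GENCODE. The word TATGGAA, which pairs with the seed (bases 2 to 8) of the guide strand used against NUF2, was present on the transcribed strand in the 3′ UTRs of RPL23, RPL27A and RPL7 (3 of 77, 3.90%) and in those of 15.0% of other tested genes. Those 3′ UTRs were long for the family in the canonical transcripts, with 2272 nt for RPL23, 4066 nt for RPL27A and 465 nt for RPL7. The coding sequence of 1 member, RPL32, held the word, against 14.8% of others. None of these 4 genes passed an adjusted p of 0.05 with or without the block. The 3 members with the word in the 3′ UTR had a median log2 fold change of 0.08. The 1532 other tested genes with it there had a median of -0.11. Whether the word bears on these values was not tested.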

How the data were processed

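RNA-seq of 8505C cells was analysed in 3 siCtrl and 3 siNUF2 libraries. The authors used fastp for quality control, HISAT2 for alignment (GRCh38) and StringTie for assembly and expression, with versions, annotation release, strand setting and counting tool not given in the sources used here. The authors deposited whole-number counts and FPKM per gene, and all 12 such columns were used. Columns named KD were taken as siNUF2. Genes whose mean FPKM reached 1 (11725) were tested with edgeR 4.0.16 (quasi-likelihood test, TMM, group only, R 4.3.3) and Benjamini-Hochberg adjustment over all of them, and values called CPM are TMM-normalised. SE is the log2 fold change over the root of F. The code was tested on simulated data, with seeded changes larger than that of any member and no effect of the replicate number. That test therefore cannot tell how well changes of the size seen in the members are found.

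Deviations from group means correlated at 0.33 to 0.44 between libraries of the same number, so the numbers pair the libraries, though no source says what a number shares. Between others they correlated at -0.27 to -0.14. Those negative values add nothing, because deviations sum to 0 within a group. Counts of replicate libraries differed well beyond counting error, with a chi-square between 90.1 and 132 per degree of freedom. The alternatives were DESeq2 1.42.0, limma 3.58.1 on log2(FPKM + 1) and log2(FPKM + 0.1), other size factors and filters, length offsets, the replicate block and left-out libraries.

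The genes and lists were chosen with earlier results of these data known. Named are members called with or without the block, the 5 highest and 5 lowest log2 fold changes, the 5 highest and 3 lowest FPKM, a list of members by role, and called genes of the related lists. Some of these genes are not reported here by name. Chosen after their values were seen were RPS9, members named for overlaps, pseudogenes or the siRNA word, and RPL7L1, RPL22L1 and LARP1. Tables and figures used Python 3.11.15, numpy 2.4.6, pandas 2.3.3 and matplotlib 3.10.9.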

Additional observations from a re-analysis of the deposited data

How the results depend on the processing

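Of the 77 genes, 0 were called in every edgeR, DESeq2 and limma fit without the replicate block, with 1 to 4 at an unadjusted p under 0.05. Over all tested genes these fits called from 47 (without both libraries numbered 2) to 972 (DESeq2). The block called 4 of the 77, also with length offsets, where 1705 and 1699 of 11725 tested genes were called. It called 2 without both libraries numbered 1 or both numbered 2 (added after seeing the data). Without both numbered 3 it called 0, with 6 at an unadjusted p under 0.05 (also added after seeing the data). Without number 1, 2 or 3 the block called 1193, 1771 and 1020 of 11725 tested genes. Leaving out each library in turn gave medians of 0.0232 to 0.148, 49 to 75 genes above 0 and differences in the share of counts of -0.0221 to 0.647 percentage points, the lowest in each case without siNUF2 library 2. The NUF2 log2 fold change stayed between -3.14 and -2.9 there and kept its call.

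Over the 4 related lists, with 20, 8, 34 and 7 tested genes, the number called was 4, beside 468 of all 11725 tested genes. It was 10 by DESeq2 (972 of all tested genes), 15 with the replicate block (1705) and 14 with length offsets besides (1699). It was 2 with length offsets alone (462 with implied and 475 with GENCODE length) or with no filter (188 of 32985). It was 1 without both libraries numbered 2 (47 of all tested genes), and 2 to 3 without single libraries (124 to 251). The block without both libraries of number 1, 2 or 3 gave 10, 15 and 8, beside 1193, 1771 and 1020 of all tested genes. The number of members moving the same way in 3 pairs stayed within 1.5 times under every scaling.

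Among the 30 named members signs turned for 8, and none of these 8 was called in any fit. Without both libraries numbered 2, RPL3 had -0.0226 (-0.0236 with the block), RPS4X -0.00624 (-0.00682), RPS18 -0.0376 (-0.0384) and RPLP2 -0.0451 (-0.0455). With GENCODE length offsets RPS18 had -0.0251 and RPLP2 -0.0494. The block without pair 1 gave 0.0324 for RPL10 and 0.0299 for RPL32, and without pair 3 it gave 0.00897 for RPL10 and 0.107 for RPS10. Over single left-out libraries the ranges were -0.0322 to 0.227 for RPL3, -0.0129 to 0.143 for RPS4X, -0.0162 to 0.126 for RPS19, -0.0681 to 0.148 for RPS18, -0.0742 to 0.144 for RPLP2, -0.0871 to 0.0379 for RPL10, -0.119 to 0.0971 for RPS10 and -0.153 to 0.0529 for RPL32. The causes were not tested. With 3 libraries per group, an exact permutation test cannot go below p = 0.1.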
